A study of Mus musculus with 12 samples.

Results

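The Ifit genes (interferon-induced proteins with tetratricopeptide repeats) of mouse chromosome 19 were examined in bone marrow-derived dendritic cells (BMDCs), a culture of myeloid cells grown from bone marrow. The 6 genes Ifit1, Ifit2, Ifit3, Ifit3b, Ifit1bl1 and Ifit1bl2 were chosen by their symbols, with earlier values of these data known. They are 6 of the 37991 genes in the count table, and all 6 passed the filter on low counts, which kept 18981 genes. Because of that choice, their levels and fold changes are a description, no p-value is given for them, and nothing is read from whether they passed a threshold. The lists of interferon genes and of cell type markers used below were also chosen with earlier results of these data known. Their counts, and the p-values of their genes, are therefore a description too.

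The cells came from C57BL/6 mice that were either wild type (WT) or labelled as lacking all 3 Vav proteins (Vav1/2/3-/-, KO). Vav proteins are guanine nucleotide exchange factors that act below immune receptors, and the title of the study places them in Card9 signalling of antifungal immunity. Each genotype was stimulated with curdlan, a particulate β-glucan used to mimic the fungal cell wall, or left untreated. The labels give the dose as 200 mg/ml for 3 hours, and whether that unit is right could not be checked here. There were 3 KO-labelled libraries with curdlan, 3 KO-labelled unstimulated, 3 WT with curdlan and 3 WT unstimulated. The labels do not say whether the libraries of a group came from separate mice or cultures, so their spread may be technical. The KO label applies to the mice, so the marrow was KO-labelled throughout culture and not only during stimulation.

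The libraries held 41421718 to 61217861 counted reads. Each group was run on a lane of its own, lanes 5 to 8, so a lane effect and a group effect cannot be told apart and no comparison could be repeated within 1 lane. The transcripts of the targeted genes were not lower in the KO-labelled libraries. Vav2 averaged 282 ± 6.0 CPM (counts scaled to the TMM library size) in unstimulated KO-labelled cells and 67.3 ± 3.1 CPM in unstimulated WT cells (SD, n = 3 each). In log2 terms this was 2.07 ± 0.08 higher (SE from the edgeR fit, adjusted p = 7.45e-09). Vav1 was 0.67 ± 0.10 higher (edgeR, adjusted p = 0.000210) and Vav3 0.48 ± 0.15 higher (edgeR, adjusted p = 0.0225), a call lost without KO-labelled unstimulated replicate 1 or 5 or WT unstimulated replicate 1. With curdlan the log2 fold changes were 2.05 ± 0.08 for Vav2, 0.63 ± 0.10 for Vav1 and -0.19 ± 0.15 for Vav3, the last with an adjusted p of 0.31 (edgeR). Counts over whole genes do not show which exons were deleted, and the genotype below is the labelled one. The dendritic cell integrin Itgax was present in every library but lower in KO-labelled cells, at 699 to 834 CPM against 1424 to 1591 CPM in WT cells unstimulated (log2 -0.92, adjusted p = 1.22e-05, edgeR) and 834 to 1025 CPM against 1295 to 1377 CPM with curdlan.

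Ifit genes are classical interferon-stimulated genes. Type I interferon binds the receptor Ifnar1/Ifnar2, the kinases Jak1 and Tyk2 activate transcription factors that include Stat2, and Stat2 joins Irf9 in a complex that binds interferon-stimulated response elements (ISREs) in promoters. Ifit promoters can also be switched on directly by activated interferon regulatory factors such as Irf3, before interferon has been made. Ifit1 binds viral RNA whose cap lacks ribose methylation and blocks its translation. Ifit2 and Ifit3 are partners in Ifit complexes, and in human cells IFIT3 stabilises the binding of RNA by IFIT1. Ifit3b is a near-copy of Ifit3 found in mice. Ifit1bl1 and Ifit1bl2 are Ifit1-like genes of mice whose roles are less well known.

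In GENCODE M21 (GRCm38) the cluster spans 99.3 kb, chr19:34550694-34650009. Ifit2 lies first (34550694 to 34576419, plus strand), then Ifit3 (34583531 to 34588731, plus), Ifit1bl1 (34592891 to 34601956, minus), Ifit3b (34607970 to 34613401, plus), Ifit1bl2 (34617049 to 34640743, minus) and Ifit1 (34640871 to 34650009, plus). No exon of a member overlaps another annotated gene. Reads can still be shared by sequence. Of the distinct 50-base stretches of Ifit3 transcripts, 51.2% occur unchanged in another gene, all in Ifit3b. For Ifit3b the share was 45.0%, for Ifit1bl2 9.34%, for Ifit1 7.14% and for Ifit1bl1 6.45%, while Ifit2 had none. The longest transcripts of Ifit3 and Ifit3b were identical at 98.0% of aligned bases, and those of Ifit1bl1 and Ifit1bl2 at 90.5%. The sources used here do not say how reads that fit several genes were counted, so the split of counts between Ifit3 and Ifit3b is uncertain.

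Promoter sequences of 300 bases (250 before to 50 after the annotated start) were taken from RefSeq (GRCm38.p6), and all 6 members matched, with 1 to 2 windows each. They are shown because the members moved together and 5 of the 6 hold the core of an ISRE in a window. Capitals mark each match to GAAANNGAAA, read as TTTCNNTTTC on the opposite strand, and each sequence runs 5′ to 3′ on the strand of its gene. The windows are chr19:34640639-34640938 (plus) for Ifit1, chr19:34583279-34583578 (plus) for Ifit3, chr19:34607707-34608006 (plus) for Ifit3b, chr19:34601919-34602218 (minus) for the second window of Ifit1bl1 and chr19:34550444-34550743 (plus) for the first window of Ifit2.
Ifit1: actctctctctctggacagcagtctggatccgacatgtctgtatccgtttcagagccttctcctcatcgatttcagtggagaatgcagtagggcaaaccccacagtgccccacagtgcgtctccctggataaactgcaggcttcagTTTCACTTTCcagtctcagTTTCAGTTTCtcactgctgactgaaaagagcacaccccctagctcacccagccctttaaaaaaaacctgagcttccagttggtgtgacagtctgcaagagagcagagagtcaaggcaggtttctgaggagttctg
Ifit3: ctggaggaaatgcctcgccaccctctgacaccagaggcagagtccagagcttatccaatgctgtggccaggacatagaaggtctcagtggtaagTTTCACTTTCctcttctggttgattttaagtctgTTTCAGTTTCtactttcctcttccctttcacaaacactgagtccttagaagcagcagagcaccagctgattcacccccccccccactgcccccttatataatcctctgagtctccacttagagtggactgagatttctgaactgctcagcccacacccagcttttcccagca
Ifit3b: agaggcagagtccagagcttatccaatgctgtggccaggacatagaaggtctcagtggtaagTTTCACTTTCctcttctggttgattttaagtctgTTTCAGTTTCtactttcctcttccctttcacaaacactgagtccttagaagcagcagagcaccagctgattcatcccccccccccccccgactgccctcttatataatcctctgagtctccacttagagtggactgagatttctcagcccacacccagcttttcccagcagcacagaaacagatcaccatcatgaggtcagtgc
Ifit1bl1: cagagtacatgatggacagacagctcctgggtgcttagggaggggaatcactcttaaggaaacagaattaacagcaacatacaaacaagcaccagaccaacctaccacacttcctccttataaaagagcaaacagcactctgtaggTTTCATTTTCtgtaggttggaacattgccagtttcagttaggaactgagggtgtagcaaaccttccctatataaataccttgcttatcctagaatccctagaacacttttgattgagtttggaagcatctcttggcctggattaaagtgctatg
Ifit2: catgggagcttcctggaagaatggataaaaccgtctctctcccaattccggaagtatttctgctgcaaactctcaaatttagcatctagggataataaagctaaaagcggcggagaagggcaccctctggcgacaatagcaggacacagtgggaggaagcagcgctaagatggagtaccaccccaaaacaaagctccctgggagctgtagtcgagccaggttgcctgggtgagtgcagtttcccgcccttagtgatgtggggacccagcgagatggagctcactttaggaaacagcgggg

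The Ifit1 window held 2 matches, beginning 104 and 85 bases before the start. Ifit3 held 2, at 156 and 122 bases, and Ifit3b held 2, at 188 and 154 bases, in windows that were identical at 258 of 260 aligned bases. Ifit1bl1 held 1 match in each of its windows, at 23 and 104 bases. Ifit1bl2 held 2 in its second window, at 70 and 51 bases. That window and the Ifit1 window face opposite ways from starts 146 bases apart and share 245 bases, so the pair of matches between these genes is 1 stretch of DNA read on both strands. Neither Ifit2 window, nor the first of Ifit1bl2, held these letters. Among all 32851 mouse promoter windows of the same length, 3.44% held the ISRE core, as did 3.99% of 27025 genes in any of their windows. The gamma-activated sequence TTCNNNGAA was found in 8.30% of all windows and among the members in the first Ifit2 window alone. The TATA box TATAAA, searched on the strand of the gene, stood in 8.32% of all windows, in both Ifit1bl1 windows and in the first Ifit1bl2 window. A match is a run of letters and not a site shown to be bound.

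**Figure D1:**
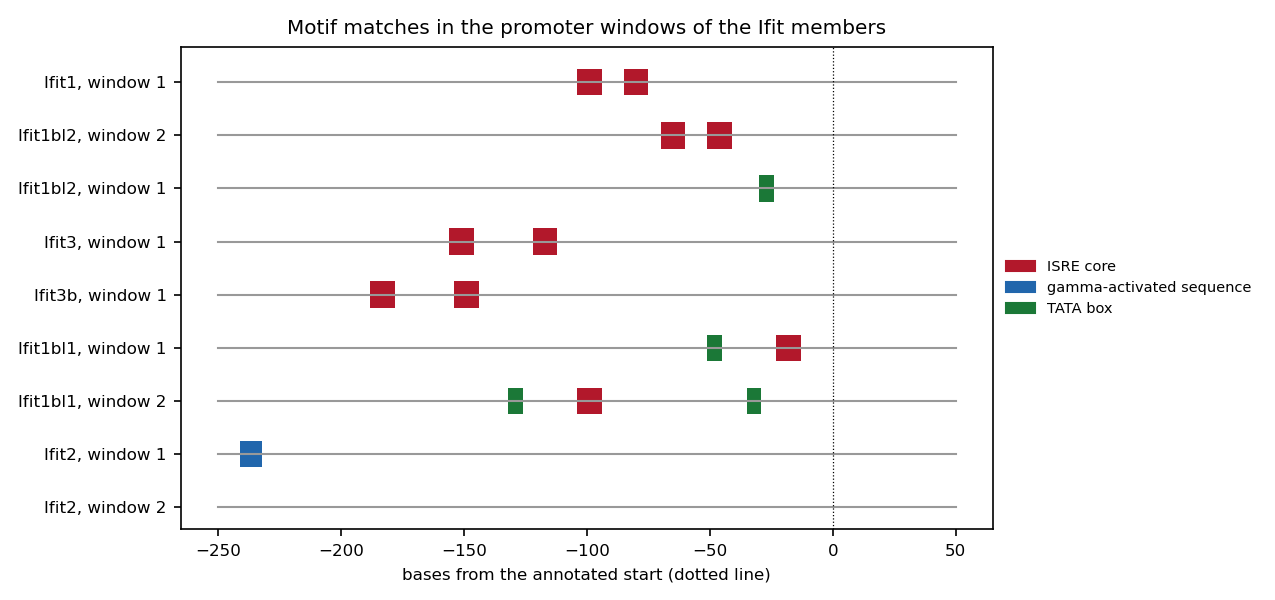
Positions of motif matches in the promoter windows of the 6 Ifit genes, in bases from the annotated start (dotted line), 1 row per window. The ISRE core (red) stands within 200 bases of the start in 6 of the 9 windows. The matches of Ifit1 and of the second Ifit1bl2 window are the same DNA, and the paired matches of Ifit3 and Ifit3b keep the same spacing.

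All 6 members had the same order of group means. KO-labelled cells with curdlan were highest, then KO-labelled unstimulated cells, then WT cells with curdlan, with WT unstimulated cells lowest. Summed over the members, the level was 2049 ± 381 CPM in KO-labelled cells with curdlan, 490 ± 143 CPM in KO-labelled unstimulated cells, 229 ± 143 CPM in WT cells with curdlan and 23.6 ± 1.8 CPM in WT unstimulated cells (SD, n = 3 each). The WT curdlan sum averaged 147 CPM without WT curdlan replicate 4. In these bulk cultures, a larger share of expressing cells and more RNA per cell cannot be told apart.

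Ifit1 had 998, 859 and 778 CPM in the KO-labelled curdlan libraries, against 201, 249 and 136 CPM in the KO-labelled unstimulated ones. In WT it had 67.5, 52.6 and 155 CPM with curdlan, against 9.20, 7.81 and 7.72 CPM unstimulated. The 3 values of each group did not overlap those of the group compared with it, but the range of KO-labelled unstimulated cells met that of WT cells with curdlan. Ifit2, the member with the most exon bases, had 1113, 671 and 752 CPM in KO-labelled cells with curdlan, against 238, 278 and 145 CPM in KO-labelled unstimulated cells. In WT cells Ifit2 had 70.5, 55.9 and 173 CPM with curdlan, against 8.99, 8.76 and 9.02 CPM unstimulated. Its WT unstimulated libraries lay within a factor of 1.03 of each other, while its WT curdlan libraries spread over a factor of 3.10.

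Ifit3 had 176, 144 and 159 CPM in KO-labelled cells with curdlan, against 36.8, 47.6 and 27.8 CPM in KO-labelled unstimulated cells. In WT cells it had 11.4, 7.53 and 25.1 CPM with curdlan, against 2.70, 1.68 and 1.85 CPM unstimulated. Ifit3 was the member for which every KO-labelled unstimulated library lay above every WT curdlan library, with a lowest value of 27.8 CPM against a highest of 25.1 CPM. Its near-copy Ifit3b ran at 78.3 to 102 CPM in KO-labelled cells with curdlan and 15.3 to 24.8 CPM in KO-labelled unstimulated cells. In WT cells Ifit3b ran at 5.16 to 17.7 CPM with curdlan and 1.12 to 1.90 CPM unstimulated.

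The Ifit1-like genes had the lowest group means of the cluster except in WT unstimulated cells, where Ifit3b averaged less than Ifit1bl2. Ifit1bl1 had 61.3, 39.3 and 40.3 CPM in KO-labelled cells with curdlan, against 7.95, 9.58 and 4.38 CPM in KO-labelled unstimulated cells. In WT cells it had 3.61, 3.55 and 12.3 CPM with curdlan, against 1.04, 0.93 and 1.17 CPM unstimulated. Ifit1bl2 ran at 22.1 to 38.1 CPM in KO-labelled cells with curdlan and 6.59 to 10.3 CPM in KO-labelled unstimulated cells. In WT cells it ran at 3.80 to 9.71 CPM with curdlan and 1.499 to 2.09 CPM unstimulated. For both genes the KO-labelled unstimulated and WT curdlan ranges overlapped, but they did not without WT curdlan replicate 4.

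One WT curdlan library stood apart from the others of its group. WT curdlan replicate 4 was at 2.32 to 3.45 times the mean of replicates 1 and 2, according to the member, and the level sums, gains and fold changes of the members that use the WT curdlan group are given with and without it. For other genes the value without it is given where it ended a call or moved a fold by over 1.5 times, and for a few others. In the KO-labelled curdlan group, replicate 2 was the highest for all 6 members, and in the KO-labelled unstimulated group replicate 5 was the lowest for all 6.

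**Figure D2:**
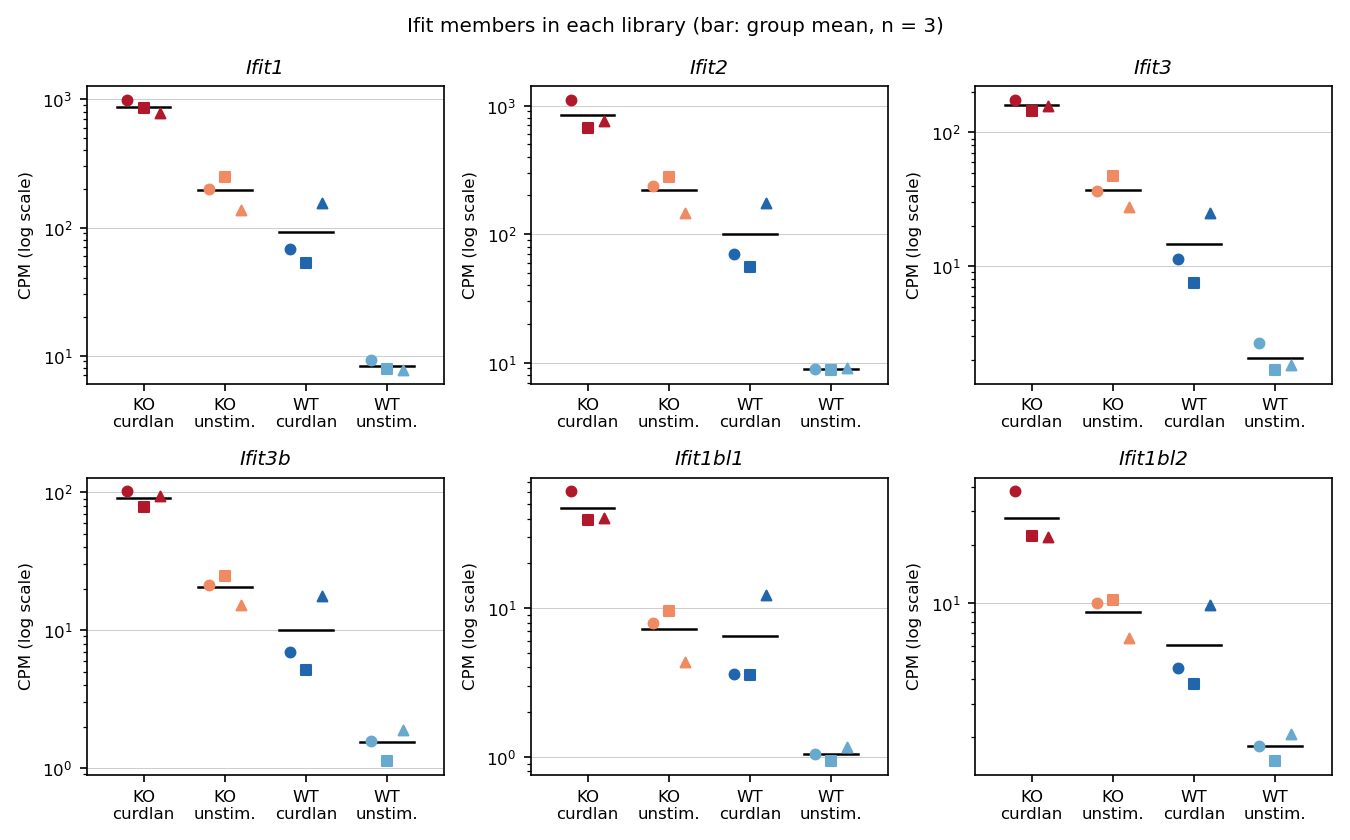
CPM of the 6 Ifit genes in each of the 12 libraries (log scale), by group, with the group mean as a bar. Circles, squares and triangles are the lowest, middle and highest replicate number of a group, so the triangle of the WT curdlan group is replicate 4; KO means KO-labelled.

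Levels were compared between members per kb of annotated exon. In KO-labelled cells with curdlan, Ifit1 averaged 331 CPM per kb, Ifit2 215, Ifit3 91.4, Ifit3b 45.7, Ifit1bl1 20.8 and Ifit1bl2 8.16 CPM per kb. In that group the ranges of neighbouring members in this order did not overlap. In KO-labelled unstimulated cells the order was the same, at 73.6, 56.1, 21.4, 10.2, 3.23 and 2.66 CPM per kb, but the ranges of Ifit1 and Ifit2 overlapped, as did those of Ifit1bl1 and Ifit1bl2. Ifit1 stood above Ifit2 within each library of that group. In its replicate 5, Ifit1bl1, at 1.936 CPM per kb, lay below Ifit1bl2, at 1.958 CPM per kb. In WT cells with curdlan the means were 34.5, 25.4, 8.40, 4.98, 2.88 and 1.79 CPM per kb in the same order, each member overlapping the next. Within each WT curdlan library the members kept that order. Without WT curdlan replicate 4 they were 22.6, 16.1, 5.42, 3.04, 1.58 and 1.25 CPM per kb, and no neighbours overlapped. In WT unstimulated cells Ifit1 averaged 3.10 CPM per kb, Ifit2 2.27, Ifit3 1.19 and Ifit3b 0.77. There Ifit1bl2, at 0.53 CPM per kb, stood above Ifit1bl1, at 0.46 CPM per kb. Their ranges overlapped, but Ifit1bl2 was the higher within each library, at 0.538 against 0.461, 0.445 against 0.413 and 0.621 against 0.520 CPM per kb.

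Ifit1 and Ifit2 together made up most of the counts of the cluster. Ifit1 held 43.2 ± 3.7% of the summed member counts in KO-labelled cells with curdlan, 39.9 ± 0.9% in KO-labelled unstimulated cells, 40.4 ± 0.9% in WT cells with curdlan and 34.9 ± 2.1% in WT unstimulated cells (SD, n = 3 each). Ifit1bl2 ran the other way, with 1.32 ± 0.19%, 1.86 ± 0.16%, 2.74 ± 0.24% and 7.61 ± 1.0% of the counts in those groups. It therefore took its largest share, of a small total, in WT unstimulated cells, where its counts were 90 to 127 per library. Ifit1bl1 (4.45 ± 0.44%), Ifit3 (8.72 ± 1.7%) and Ifit3b (6.46 ± 1.5%) also had their largest mean share in WT unstimulated cells.

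With curdlan, the members were higher than in unstimulated cells of either genotype. In KO-labelled cells the log2 fold changes, curdlan over unstimulated, were 2.17 ± 0.34 for Ifit1, 1.94 ± 0.37 for Ifit2, 2.09 ± 0.34 for Ifit3, 2.16 ± 0.35 for Ifit3b, 2.69 ± 0.43 for Ifit1bl1 and 1.62 ± 0.32 for Ifit1bl2 (SE from the edgeR fit). All 6 were past the threshold of an adjusted p under 0.05, where 14.0% of all genes tested were called higher and 14.6% lower. Nothing is read from that count, since the members were chosen with these values known.

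In WT cells the log2 fold changes with curdlan were 3.47 ± 0.36 for Ifit1, 3.48 ± 0.40 for Ifit2, 2.81 ± 0.39 for Ifit3, 2.70 ± 0.41 for Ifit3b, 2.63 ± 0.49 for Ifit1bl1 and 1.75 ± 0.36 for Ifit1bl2. Again 6 of 6 were past the threshold, beside 11.4% of all genes called higher and 8.40% lower. With the replicate number as a block 7276 genes were called in WT, against 3759 without it. Without WT curdlan replicate 4 the member values were 2.86, 2.82, 2.18, 1.99, 1.77 and 1.22 in the same order. Ranked by log2 fold change among the 18981 genes, Ifit2 stood at 38 and Ifit1 at 40 in WT, and at 178 and 122 in KO-labelled cells.

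The difference of the log2 response, KO-labelled minus WT, was -1.30 ± 0.47 for Ifit1, -1.54 ± 0.52 for Ifit2, -0.72 ± 0.50 for Ifit3, -0.54 ± 0.53 for Ifit3b, 0.06 ± 0.67 for Ifit1bl1 and -0.13 ± 0.47 for Ifit1bl2. None of the 6 passed the threshold in the edgeR fit, beside 1.61% of all genes called higher and 3.60% called lower. At an unadjusted p under 0.05 the count was 2, Ifit1 and Ifit2, a cut-off for which the share of all genes was not computed. DESeq2 called 0 at the adjusted threshold. With the replicate number as a block within genotype, Ifit1 at -1.06 and Ifit2 at -1.12 passed the adjusted threshold, in a fit that called 2671 genes against 989 without the block. The KO-labelled pairs in that fit were replicates 2 and 5 alone. Ifit2 at -1.80 also passed without KO-labelled curdlan replicate 2. Without WT curdlan replicate 4, Ifit1 was at -0.69, Ifit2 at -0.88, Ifit3 at -0.08, Ifit3b at 0.18, Ifit1bl1 at 0.93 and Ifit1bl2 at 0.40, and none passed. Nothing is read from these calls, since the members were chosen with earlier values known.

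In CPM the mean gain with curdlan was larger in KO-labelled cells for all 6 members. Yet no difference of the log2 response passed the threshold in the edgeR fit of all 12 libraries without the replicate block. The gain was 683 CPM in KO-labelled cells and 83.3 CPM in WT cells for Ifit1, a ratio of 8.19. For Ifit2 it was 625 CPM and 90.9 CPM, for Ifit3 122 CPM and 12.6 CPM, and for Ifit3b 70.9 CPM and 8.43 CPM, KO-labelled first in each pair. For Ifit1bl1 it was 39.7 CPM in KO-labelled and 5.45 CPM in WT cells, and for Ifit1bl2 18.5 CPM in KO-labelled and 4.23 CPM in WT cells. The ratio of the gains, KO-labelled over WT, ran from 4.37 (Ifit1bl2) to 9.71 (Ifit3). Without WT curdlan replicate 4 the WT gain was 51.8 CPM for Ifit1 and the ratio 13.2, and the ratios ran from 7.74 (Ifit1bl2) to 16.5 (Ifit3).

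**Figure D3:**
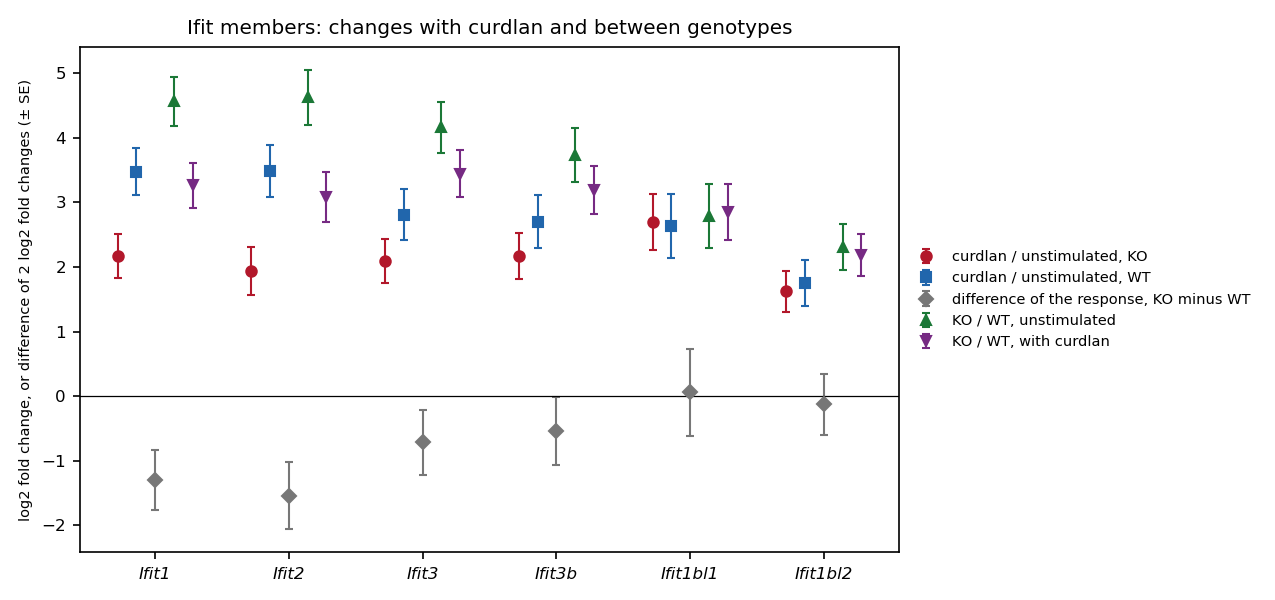
Log2 fold changes of the 6 Ifit genes with their SE: curdlan over unstimulated in KO-labelled and in WT cells, the difference of these responses (KO-labelled minus WT), and KO-labelled over WT without and with curdlan. Ifit1 and Ifit2 have the lowest differences of the response, at -1.30 and -1.54, and Ifit1bl1 and Ifit1bl2 lie near 0.

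Without curdlan, KO-labelled cells held more Ifit RNA than WT cells. The log2 fold changes of KO-labelled over WT unstimulated cells were 4.56 ± 0.38 for Ifit1, 4.63 ± 0.42 for Ifit2, 4.16 ± 0.40 for Ifit3, 3.73 ± 0.41 for Ifit3b, 2.79 ± 0.49 for Ifit1bl1 and 2.31 ± 0.35 for Ifit1bl2. Ifit1 was thus 23.7-fold and Ifit2 24.7-fold higher. All 6 were past the threshold, beside 21.1% of all genes called higher and 23.3% lower, so that large parts of the transcriptome differed between the genotype groups. Ranked by log2 fold change, Ifit2 stood at 27, Ifit1 at 28 and Ifit3 at 42 of the 18981 genes. The unstimulated KO-labelled mean was also 1.12 times (Ifit1bl1) to 2.55 times (Ifit3) the mean of WT cells with curdlan, and 2.04 times (Ifit1bl1) to 3.96 times (Ifit3) without WT curdlan replicate 4.

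With curdlan the members were again higher in KO-labelled cells. KO-labelled over WT cells gave log2 fold changes of 3.26 ± 0.35 for Ifit1, 3.08 ± 0.39 for Ifit2, 3.44 ± 0.36 for Ifit3, 3.19 ± 0.37 for Ifit3b, 2.85 ± 0.43 for Ifit1bl1 and 2.19 ± 0.33 for Ifit1bl2. Here too 6 of 6 were past the threshold, beside 24.7% of all genes called higher and 26.8% lower. Without WT curdlan replicate 4 the values were 3.87, 3.74, 4.07, 3.91, 3.71 and 2.71 in that order. The authors' deposited table of this comparison lists smaller log2 fold changes, 2.53 for Ifit1, 2.24 for Ifit2, 2.63 for Ifit3, 2.41 for Ifit3b, 1.98 for Ifit1bl1 and 1.73 for Ifit1bl2.

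The authors' deposited table named as an interaction lists log2 values of 4.58 for Ifit1, 4.64 for Ifit2 and 2.81 for Ifit1bl1. Over genes whose log2 CPM averaged 5 or more, that table lay a median of 0.011 from the unstimulated contrast of KO-labelled over WT cells fitted here, and 0.376 from the difference of the response. Its values were therefore not set beside the difference of the response.

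RNA of markers of several cell types differed between the genotype groups. Over all genes, 21.1% were called higher and 23.3% lower in KO-labelled cells unstimulated, and 24.7% and 26.8% with curdlan. Of 11 macrophage markers tested, 9 were higher in KO-labelled than in WT unstimulated cells and none lower, and their summed level was 7626 to 9040 CPM against 2012 to 2119 CPM. Of 12 neutrophil markers 11 were higher (7381 to 11119 CPM in KO-labelled against 4983 to 6229 CPM in WT unstimulated cells). Of 9 mast cell and basophil markers tested 8 were higher (231 to 320 CPM against 49.9 to 54.5 CPM, with Mcpt4 at 0 in every library), and all 9 B-cell markers tested were lower (2.01 to 2.25 CPM against 49.6 to 62.0 CPM). With curdlan the counts of these lists were the same. Of 10 stromal markers 7 were higher and 1 lower unstimulated (49.6 to 53.5 CPM against 25.1 to 28.4 CPM), and of 8 T-cell and NK-cell markers tested 1 was higher and 1 lower (8.51 to 10.6 CPM against 11.3 to 13.1 CPM, with Gzma at 0 in every library).

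Dendritic cell markers moved both ways, beside 21.1% of all genes called higher and 23.3% lower unstimulated, and 24.7% and 26.8% with curdlan. Of 12 conventional dendritic cell markers, 4 were higher in KO-labelled than in WT unstimulated cells and 4 lower, with a sum of 12933 to 16443 CPM against 8715 to 8946 CPM. The antigen-presentation gene H2-Ab1 was higher by 1.35 ± 0.12 (log2) and Cd209a by 4.10 ± 0.56, while the log2 values of Clec9a, Batf3 and Ccr7 were -5.70, -0.83 and -0.77. With curdlan 3 were higher and 4 lower. Of 12 markers of plasmacytoid dendritic cells, a cell type known for making interferon, 5 were higher and 4 lower unstimulated, and 5 each with curdlan. Their sum was 271 to 318 CPM in KO-labelled against 199 to 221 CPM in WT unstimulated cells, and 382 to 493 CPM against 232 to 269 CPM with curdlan. Unstimulated, Irf7 (2.77), Klk1 (2.25), Cox6a2 (2.10) and Bst2 (1.02) were higher, and Ly6d (-8.36), Pacsin1 (-3.07) and Spib (-1.61) lower. Irf7 and Bst2 are also interferon-stimulated genes. Siglech, a defining marker, stood at 0.22 to 0.47 CPM over all groups. The part of these differences in the Ifit levels was not tested.

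Interferon beta, the ligand that heads the pathway, was ordered otherwise than the Ifit genes in the middle of the range. Ifnb1 had 38.3, 19.2 and 34.9 CPM in KO-labelled cells with curdlan, against 1.01, 2.07 and 1.39 CPM in KO-labelled unstimulated cells. In WT cells it had 5.27, 3.82 and 7.63 CPM with curdlan, against 0.11, 0.10 and 0.10 CPM unstimulated, the last from 20 reads in all. Unlike the Ifit genes, Ifnb1 was higher in WT cells with curdlan than in KO-labelled unstimulated cells, without overlap. With curdlan it rose by 4.39 ± 0.33 (log2) in KO-labelled cells (adjusted p = 4.19e-06, edgeR) and by 5.68 ± 0.47 in WT cells (adjusted p = 6.67e-06, edgeR), or 5.39 without WT curdlan replicate 4. Between KO-labelled and WT cells it was higher by 3.76 ± 0.54 unstimulated (adjusted p = 0.000122, edgeR) and by 2.47 ± 0.29 with curdlan (adjusted p = 2.42e-05, edgeR). The difference of the response, -1.29, was not past the threshold (adjusted p = 0.24, edgeR), but passed it with the replicate block, at -1.24 (adjusted p = 0.0211, edgeR). Of 21 listed interferon ligands, 11 were in the count table and Ifnb1 alone passed the filter.

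Among sensors and adapters of nucleic acids, 8 of 17 rose and 2 fell with curdlan in KO-labelled cells, and 10 rose and 1 fell in WT cells. Counts of this list and of those that follow are a description, since the lists were chosen with earlier results known. Ifih1, the RNA sensor MDA5, rose by 1.71 ± 0.17 in KO-labelled and 2.23 ± 0.17 in WT cells on the log2 scale. Mavs, the mitochondrial adapter of RNA sensors, fell by 0.71 in KO-labelled and by 0.46 in WT cells, and is named after its values were seen. In KO-labelled over WT unstimulated cells 13 of 17 were higher and 3 lower, the higher led by Ifih1 (2.69 ± 0.17), the DNA receptor Tlr9 (2.24 ± 0.29) and the RNA receptor Tlr3 (1.52 ± 0.21). The lower 3 were Mavs (-0.54), Tlr4 (-0.50), the receptor of lipopolysaccharide, and Tmem173 (-0.39), the adapter STING, likewise named after their values were seen. With curdlan 11 were higher and 3 lower, the lower again Mavs (-0.79), Tlr4 (-0.48) and Tmem173 (-0.42). Among all genes, 14.0% rose and 14.6% fell with curdlan in KO-labelled cells, and 11.4% and 8.40% in WT cells. Between KO-labelled and WT cells, 21.1% of all genes were higher and 23.3% lower unstimulated, and 24.7% and 26.8% with curdlan.

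Most genes of the list of interferon receptors and their signalling were higher in KO-labelled than in WT unstimulated cells. Of 12 genes, which include the receptors of interferon gamma and lambda, 10 were higher and none lower, with a median log2 fold change of 0.71 beside -0.01 over all genes. Ifnar1 was higher by 1.02 ± 0.08 and Ifnar2 by 1.00 ± 0.07, Stat2 by 1.09 ± 0.18, Irf9 by 1.00 ± 0.11 and Jak1 by 0.53 ± 0.11, all past the threshold (edgeR). Tyk2 had a log2 fold change of 0.03 ± 0.10, which did not pass. With curdlan 8 of the 12 were higher in KO-labelled than in WT cells and 1 lower, with Ifnar1 at 0.50, Ifnar2 at 0.54, Stat2 at 1.06 and Irf9 at 0.64. The lower one was Ifngr1 (-0.28), and Jak1 (0.25) and Tyk2 (-0.06) did not pass. Of all genes, 21.1% were higher and 23.3% lower in KO-labelled cells unstimulated, and 24.7% and 26.8% with curdlan.

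Within genotypes, 4 of these 12 rose and 3 fell with curdlan in KO-labelled cells, beside 14.0% and 14.6% of all genes. In WT cells 4 rose and none fell, beside 11.4% and 8.40% of all genes. There the replicate block called 7 higher and 1 lower, and also called more genes in all. Stat2 rose by 1.08 ± 0.18 in KO-labelled and 1.11 ± 0.18 in WT cells, and Irf9 by 0.72 ± 0.11 and 1.08 ± 0.11 in the same groups. Ifnar2 fell by 0.21 in KO-labelled cells and rose by 0.25 in WT cells, calls that were each lost when any 1 of 5 of the 6 libraries was left out, and Ifnar1 had -0.18 ± 0.08 in KO-labelled cells, past the threshold without KO-labelled curdlan replicate 2 or with library size alone but not otherwise, and rose by 0.34 ± 0.08 in WT cells. The difference of the response was past the threshold for both, at -0.52 ± 0.11 for Ifnar1 (adjusted p = 0.0216, edgeR) and -0.46 ± 0.10 for Ifnar2 (adjusted p = 0.0240, edgeR), and stayed past it in 15 and 13 of 19 alternative settings.

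Of the interferon regulatory factors, 4 of 7 tested rose and 1 fell with curdlan in each genotype. The shares of all genes that rose and fell were 14.0% and 14.6% in KO-labelled cells and 11.4% and 8.40% in WT cells. Irf7, which amplifies interferon production, rose by 1.31 ± 0.29 in KO-labelled and 2.12 ± 0.31 in WT cells and was higher in KO-labelled than WT cells by 2.77 ± 0.31 unstimulated and 1.96 ± 0.29 with curdlan (adjusted p = 1.90e-05 and 0.000165, edgeR). The WT rise of Irf7 was 1.65 without WT curdlan replicate 4. Its difference of the response, -0.81 ± 0.41, was not past the threshold. Irf3, which is activated by phosphorylation, had 0.05 ± 0.08 in KO-labelled over WT unstimulated cells and did not pass. Across the factors 3 of 7 were higher and none lower in KO-labelled than WT unstimulated cells, beside 21.1% and 23.3% of all genes. With curdlan 2 were higher and 2 lower, near the shares of all genes, 24.7% and 26.8%. Irf1 had 2.25 ± 0.15 unstimulated and 2.17 ± 0.15 with curdlan in KO-labelled over WT cells.

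Most listed regulators of interferon signalling, a list chosen with earlier results known, were higher with curdlan and in KO-labelled cells. Of 12, 10 rose and none fell with curdlan in KO-labelled cells (6 and 1 with library size alone as the scaling), and 8 rose and none fell in WT cells. In KO-labelled over WT cells 8 were higher unstimulated and 9 with curdlan, with none lower in either. All-gene shares there were 21.1% higher and 23.3% lower unstimulated, and 24.7% and 26.8% with curdlan. For the rise and fall with curdlan they were 14.0% and 14.6% in KO-labelled cells, and 11.4% and 8.40% in WT cells. Isg15, a ubiquitin-like modifier, averaged 429 ± 25 CPM in KO-labelled cells with curdlan, 128 ± 8.9 CPM in KO-labelled unstimulated cells, 111 ± 34 CPM in WT cells with curdlan and 15.6 ± 3.8 CPM in WT unstimulated cells (SD, n = 3 each). It rose with curdlan by 1.74 ± 0.20 in KO-labelled and 2.83 ± 0.21 in WT cells. Its difference of the response was -1.08 ± 0.27 (adjusted p = 0.0419, edgeR), and -0.81 without WT curdlan replicate 4, where the adjusted p was 0.0678 (edgeR). Usp18, which removes Isg15 and damps receptor signalling, rose by 1.85 ± 0.28 in KO-labelled and 1.82 ± 0.29 in WT cells, or 1.30 without WT curdlan replicate 4. Usp18 was higher in KO-labelled than WT cells by 2.34 ± 0.29 unstimulated and 2.37 ± 0.29 with curdlan.

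**Figure D4:**
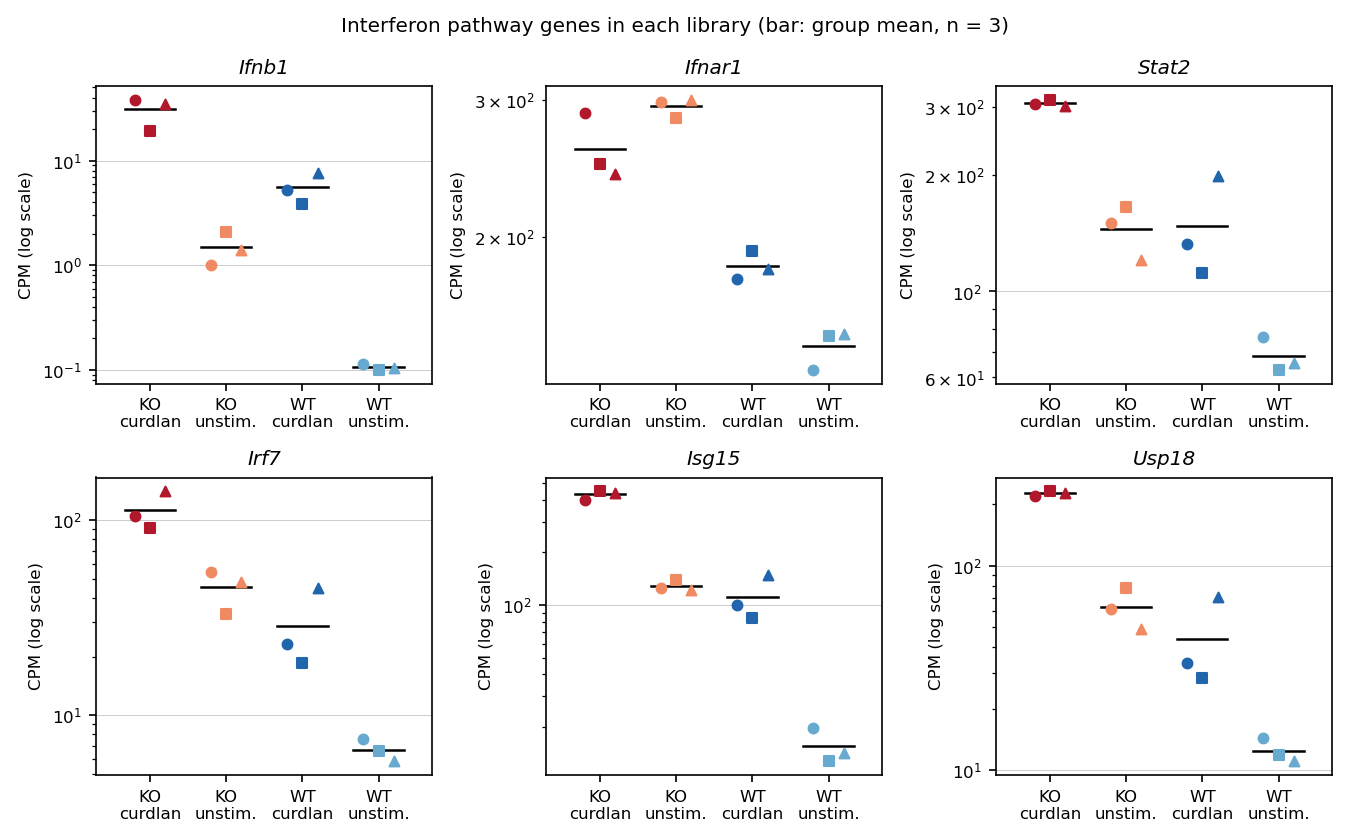
CPM of Ifnb1, Ifnar1, Stat2, Irf7, Isg15 and Usp18 in each of the 12 libraries (log scale), with group means as bars; circles, squares and triangles are the lowest, middle and highest replicate number, and KO means KO-labelled. WT curdlan replicate 4 is the highest WT curdlan library for Ifnb1, Stat2, Irf7, Isg15 and Usp18, but not for Ifnar1.

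Of 48 other interferon-stimulated effector genes, 36 rose and 1 fell with curdlan in KO-labelled cells, with a median log2 fold change of 0.83, and 32 rose and 1 fell in WT cells, with a median of 0.80. The largest rises in KO-labelled cells were in Cmpk2 (2.67 ± 0.35), Mx2 (2.62 ± 0.29) and Rsad2 (2.61 ± 0.31), and those in WT cells in Rsad2 (4.59 ± 0.34), Cmpk2 (3.48 ± 0.37) and Cxcl10 (2.91 ± 0.27). The rise of Cmpk2 in WT cells was 2.79 without WT curdlan replicate 4. Rsad2 encodes the antiviral enzyme viperin, Mx2 a dynamin-like GTPase and Cxcl10 a chemokine for T cells. In KO-labelled over WT unstimulated cells 46 of 48 were higher and none lower, with a median of 1.37, led by Rsad2 (4.86 ± 0.35), Oasl1 (4.17 ± 0.19) and Cmpk2 (3.83 ± 0.37). With curdlan 47 were higher and none lower, with a median of 1.54, led by Cmpk2 (3.02 ± 0.35), Oas2 (2.89 ± 0.24) and Rsad2 (2.88 ± 0.31), with Cmpk2 at 3.705 without WT curdlan replicate 4. Beside these counts, 14.0% of all genes rose and 14.6% fell with curdlan in KO-labelled cells, and 11.4% and 8.40% in WT cells. In KO-labelled over WT cells 21.1% of all genes were higher and 23.3% lower unstimulated, and 24.7% and 26.8% with curdlan. The comparisons share groups of libraries, so the counts are not independent of one another. Nothing more is read from them, since the list was chosen with earlier results known.

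The difference of the response was past the threshold for 5 of the 48, lower for Rsad2, Oasl1 and Rtp4 and higher for Ifi35 and Nmi. Of all genes tested, 3.60% were called lower and 1.61% higher in this contrast. With the replicate block, which also called more genes in all, 7 were higher and 5 lower. Without WT curdlan replicate 4 the counts were 7 and 3. Rsad2 had -1.98 ± 0.42 (adjusted p = 0.0211, edgeR), or -1.40 without WT curdlan replicate 4. Oasl1 had -1.45 ± 0.24 (adjusted p = 0.00849, edgeR). The Rsad2 call was kept in 14 of 19 alternative settings and the Oasl1 call in all 19. The median over the 48 was -0.08, beside 0.00 over all genes.

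The genes most like the members over the 12 libraries were sought among the 9717 named genes whose log2 CPM averaged 2 or more. Irgm2 (r = 0.998), Tgtp1 (0.998), Tgtp2 (0.998), Iigp1 (0.996) and Adar (0.995) had the highest Pearson r with the mean standardised log2 CPM of the members. The first 4 are interferon-inducible GTPases and Adar edits double-stranded RNA. The 4 groups lie apart and set most of these values. With group means removed, the highest were Irgm2 (0.977), Ifi47 (0.977), Zc3hav1 (0.971), Mx1 (0.970) and Irgm1 (0.960). Between the members themselves, r was 0.971 to 0.998 over the 15 pairs, and 0.842 to 0.979 with group means removed. These points share libraries and, for Ifit3 with Ifit3b, sequence. WT curdlan replicate 4, which stood apart from its group for the members, is in all of these r values, and they were not computed without it.

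The genes that flank the cluster did not share one pattern. No other gene with a symbol in the count table lies between the members. On the side of Ifit2, Lipa, a lysosomal lipase 23.2 kb away, had log2 values of -0.13 ± 0.12 in KO-labelled and 0.05 ± 0.12 in WT cells with curdlan, neither past the threshold. In KO-labelled over WT cells Lipa had -0.26 ± 0.12 unstimulated, past it without KO-labelled unstimulated replicate 1 (-0.38) or with library size alone (-0.44) but not otherwise, and was lower with curdlan, at -0.44 (adjusted p = 0.00972, edgeR). Ch25h, a cholesterol hydroxylase and itself an interferon-stimulated gene 75.5 kb away, rose with curdlan by 2.16 ± 0.28 in KO-labelled and 2.20 ± 0.30 in WT cells. Ch25h was higher in KO-labelled than WT cells by 2.11 ± 0.30 unstimulated and 2.07 ± 0.28 with curdlan. The death receptor gene Fas, 223 kb away, was higher in KO-labelled than WT cells by 1.15 ± 0.08 unstimulated and 1.10 ± 0.08 with curdlan, but had 0.11 ± 0.07 and 0.16 ± 0.08 with curdlan in KO-labelled and WT cells, not past the threshold. The smooth muscle actin gene Acta2, 295 kb away, was higher by 0.30 to 0.50 in each of the 4 contrasts.

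On the side of Ifit1, the nearest gene, Slc16a12 at 18.4 kb, had 52 counts in all and was not tested. Pank1, an enzyme of coenzyme A synthesis at 157 kb, was lower in KO-labelled than WT cells, with log2 values of -1.21 ± 0.12 unstimulated and -1.18 ± 0.13 with curdlan. Kif20b, a mitotic kinesin at 272 kb, was lower too, with -1.22 ± 0.12 unstimulated and -1.51 ± 0.13 with curdlan. With curdlan Pank1 had -0.28 ± 0.14 in KO-labelled and -0.31 ± 0.12 in WT cells, neither past the threshold, and Kif20b fell by 0.63 in KO-labelled cells and had -0.34 ± 0.12, not past it, in WT cells. Of the 6 neighbours tested, Ch25h alone was higher in all 4 of these contrasts by more than 2 on the log2 scale.

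**Figure D5:**
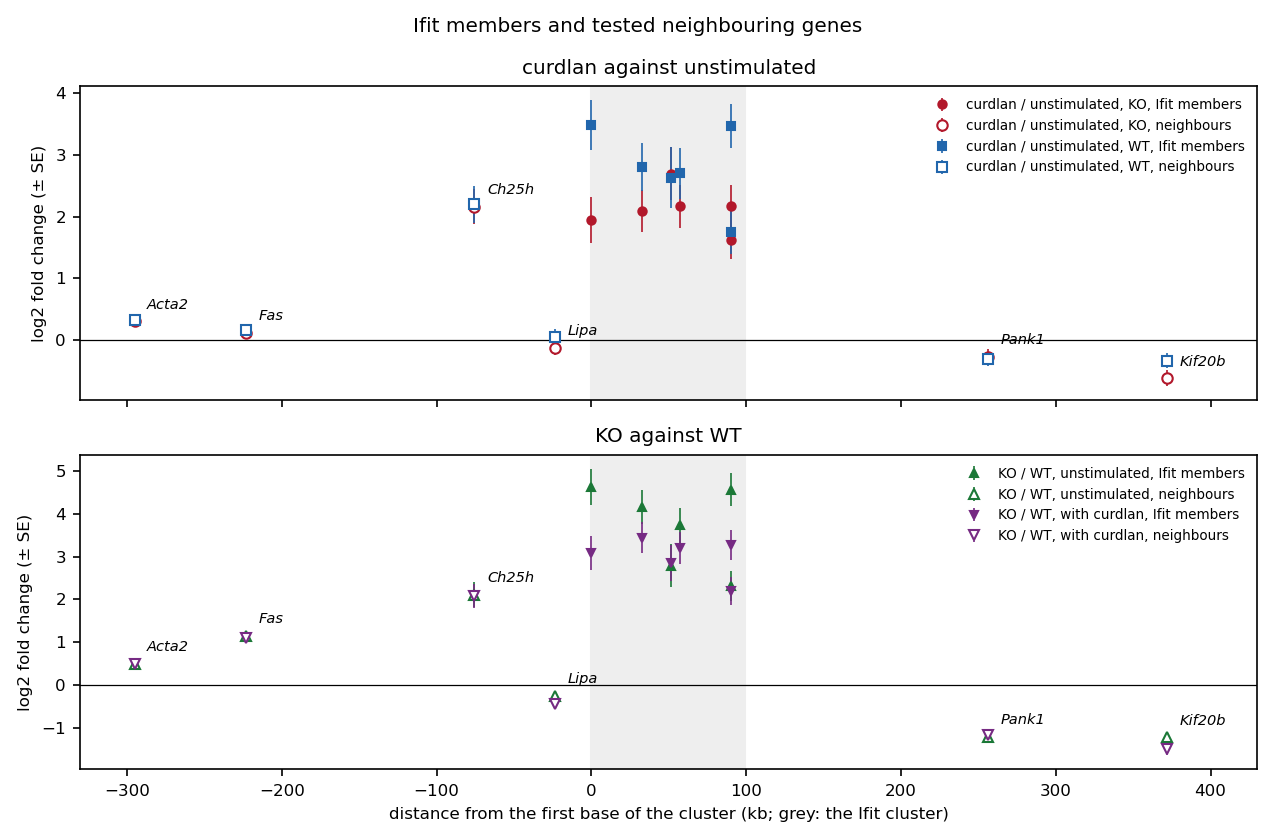
Log2 fold changes with SE of the 6 Ifit genes (filled, at their starts) and of the 6 tested neighbours (open), by distance in kb from the first base of the cluster (grey band). Members lie between 1.62 and 4.63, and among the neighbours Ch25h alone lies in that range in both panels.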

How the data were processed

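RNA of 12 BMDC libraries (4 groups of 3) was purified with TRIzol and a column kit and prepared with a TruSeq kit that does not mark strand, per the labels' protocols. The authors deposited whole-number counts per gene, which per the submitters' processing notes came from a chain naming TopHat2, SAMtools 1.2, featureCounts 1.4.6 and DESeq2 1.8.2. The build, the annotation and the handling of shared reads are not stated in those sources. The authors also deposited comparison tables with log2 fold changes and p-values, used only where named, and their 18 columns of normalised values were not used.

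The main test was the edgeR 4.0.16 quasi-likelihood test in R 4.3.3 on all 12 libraries, with TMM scaling, filterByExpr by group (minimum count 10), 4 group means and Benjamini-Hochberg adjustment over the 18981 genes tested, at a threshold of 0.05. SEs are the log2 fold change divided by the square root of F. CPM are per TMM-scaled library, and log2 CPM add a prior count of 2. The code was tested on simulated data. DESeq2 1.42.0 was an alternative. The members, gene lists and markers were chosen with earlier results of these data known. Named genes were the 6 members, Ifnb1, Ifnar1, Ifnar2, Jak1, Tyk2, Stat2, Irf9, Irf3, Irf7, Usp18, Isg15, Vav1, Vav2, Vav3, up to 3 further called genes of each pathway list by size, 5 neighbours a side and the 5 most similar genes. Values of some single genes of the lists are not reported here, and the lists' counts include them.

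Gene positions were matched by Ensembl ID to GENCODE M21, and transcripts and promoters were aligned with Biopython 1.88. Replicate numbers came from the library names. Same-numbered libraries of a genotype deviated together, with r of 0.395, 0.239 and 0.129 in WT and 0.287 and 0.557 in KO-labelled libraries. Differently numbered ones had r of -0.290 to 0.0822 in WT and -0.470 to 0.246 in KO-labelled libraries. KO-labelled curdlan replicate 4 and KO-labelled unstimulated replicate 1 had no partner of their number, so the KO-labelled pairs were replicates 2 and 5 alone. The numbers were taken to pair libraries in the fits with a replicate block, and the main test did not use them. For KO-labelled over WT cells that block joined same-numbered libraries of both genotypes, a pairing that was not checked. The authors' comparison table gives the WT curdlan libraries other numbers, with r of -0.158, -0.245 and 0.0822.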

Additional observations from a re-analysis of the deposited data

Results flagged for a closer look

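Among the named interferon genes, 14 had a response to curdlan that differed between KO-labelled and WT cells, by a test of the difference itself (edgeR, KO-labelled minus WT, log2). Of all genes tested, 1.61% were called higher and 3.60% lower in this contrast. Some of the 14 were named because they passed the threshold, so nothing is read from their count. The log2 response was lower in KO-labelled cells for Rsad2 (-1.98, adjusted p = 0.0211), Oasl1 (-1.45, adjusted p = 0.00849), Rtp4 (-1.24, adjusted p = 0.0276), Isg15 (-1.08, adjusted p = 0.0419) and Socs3 (-0.95, adjusted p = 0.0109). The level of each of these genes was higher in KO-labelled than in WT cells, as for Rsad2 (log2 4.86 unstimulated and 2.88 with curdlan). Smaller differences of the response in the same direction were those of Ifnlr1 (-0.73, adjusted p = 0.0340), Ticam1 (-0.67, adjusted p = 0.0254), Traf3 (-0.59, adjusted p = 0.0379), Ifnar1 (-0.52, adjusted p = 0.0216) and Ifnar2 (-0.46, adjusted p = 0.0240), all by edgeR. The response was higher in KO-labelled cells for Ifi35 (0.88, adjusted p = 0.0138), Uba7 (0.74, adjusted p = 0.0166), Trim25 (0.61, adjusted p = 0.0391) and Nmi (0.52, adjusted p = 0.0173), again by edgeR.

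Over 19 alternative settings, the calls of Oasl1, Socs3 and Ifi35 were kept in all 19, that of Nmi in 18, Uba7 in 17, Ifnar1 in 15 and Rsad2 and Rtp4 in 14 each. Those of Ifnar2 and Ticam1 were kept in 13, of Ifnlr1 and Trim25 in 11 and of Isg15 and Traf3 in 8. The direction was the same for all 14 in every one of these settings.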

How the results depend on the processing

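In the 4 comparisons other than the difference of the curdlan response, all 6 members stayed past the threshold and kept their direction under every alternative tried, leaving out any 1 library included. Of 452 member values under alternatives, 438 kept direction and side of the threshold, 3 newly passed it and 11 changed sign, all 14 in the difference of the curdlan response. The count of members past the threshold there was 0, against 2 with the replicate block and 0 to 1 when a library was left out. Leaving out 1 library moved that difference over -0.23 to 0.93 for Ifit1bl1, -0.44 to 0.40 for Ifit1bl2 and -0.85 to 0.18 for Ifit3b. Ifit1bl2 was at 0.14 with the replicate block, 0.17 with the block numbered as in the authors' comparison table (chosen after seeing the data) and 0.060 with the counts of Ifit1bl1 and Ifit1bl2 summed. Genes called with curdlan in KO-labelled cells numbered 5425, but 3142 with those groups fitted alone and 3490 to 6074 without 1 library, the lowest without KO-labelled unstimulated replicate 1. In WT the 3759 calls became 6123 with library size alone, 7276 with the replicate block and 2170 to 3122 without 1 library, the lowest without WT curdlan replicate 4. For the difference, 989 became 2251 with DESeq2, 2671 with the block and 366 to 2837 without 1 library, the lowest without WT curdlan replicate 2 and the highest without KO-labelled curdlan replicate 2. The block changed no other call of a member, but for KO-labelled over WT cells it joined same-numbered libraries of both genotypes. Library size alone shifted the median of all genes to -0.20 (KO-labelled) and -0.17 (WT) with curdlan, and for KO-labelled over WT to -0.19 unstimulated and -0.24 with curdlan. The higher share of calls was then 17.9% against 49.0%, 25.1% against 57.6%, 26.4% against 47.5% and 23.7% against 48.0% in the same order, and 15.7% against 30.8% for the difference. With upper-quartile factors it was 46.3% in WT and 42.0% for the difference. Among other genes, library size alone turned Fas in KO-labelled cells to -0.088 and Lipa in WT cells to -0.081 with curdlan, and in unstimulated KO-labelled over WT cells Tyk2 to -0.16 and Irf3 to -0.13. Upper-quartile factors put Tyk2 at -0.0071, and leaving out 1 library gave -0.034 to 0.11 for Tyk2 and -0.016 to 0.12 for Irf3. The causes were not tested.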
